A study of Rattus norvegicus with 6 samples.

Results

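Whole-lung gene expression was compared 1 month after inhalation of C60 fullerene, a cage-shaped molecule built of carbon alone, with that of rats kept in clean air. The comparison was defined by the labels and takes 8 of the 23 arrays of the study, 4 from C60 lungs and 4 from clean-air control lungs. All groups were male Wistar rats, 9 weeks old when whole-body exposure in a chamber began, and exposure lasted 4 weeks at 6 hours a day on 5 days a week. Lungs were taken 33 days after the last exposure, called 1 month here, and were perfused with saline. Cy3-labelled RNA from right lungs was read on 1-colour oligonucleotide arrays of the rat genome. The remaining arrays, from lungs taken 3 days after exposure and from rats that inhaled ultrafine nickel oxide (NiO, the positive control of the study), served only to check whether the control slide stood apart. For both groups compared the labels give as many lungs as there are arrays, so 1 array was taken as 1 rat, and the p-values rest on the spread of these arrays alone.

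Inhaled particles of low solubility are taken up in the alveoli mainly by macrophages, and a lung reacting to them typically shows macrophage lysosomal genes, chemokines that call neutrophils, oxidative defence genes of the Nrf2 pathway and, with time, matrix genes. Lung tissue also runs a circadian clock, in which Bmal1 with Clock or Npas2 drives the Per, Cry, Nr1d1, Dbp and Tef genes through E-boxes. NR1D1 in turn holds Bmal1 and Npas2 down, so that the arms of the loop peak at opposite times of day. The labels used here give no time of dissection.

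Values are log2 of the processed signal, with the 75th percentile of each array set to 0, so a value of 1 is a signal of 2 times that percentile and a difference of 1 is a 2-fold difference. Of 24671 genes tested with limma (each represented by 1 probe, 13457 of them with a symbol), 3088 passed a Benjamini-Hochberg adjusted p of 0.05, which is 12.5% of those tested. Higher after C60 were 888 genes, 3.6% of those tested, and lower were 2200, 8.92%. Without C60 array 2 or 3 the count was 396 or 395 genes. Differences of at least 1 log2 unit numbered 65 higher (0.263%) and 1290 lower (5.23%). The balance of directions depended on the scaling of the arrays. With the 75th percentile the median difference of all genes was -0.09, with quantile normalization it was 0.02 and 1905 genes were higher (7.72%) and 1305 lower (5.29%), and with the array median as the scale it was 0.22 and 5697 were higher and 1668 lower. Among genes with a symbol, the set from which the lists below are drawn, 4.77% were called higher and 6.13% lower.

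Slide and group cannot be told apart, because each slide held the 4 arrays of 1 group. Spots well above background made up 68.6, 68.2, 70.3 and 69.6% on the C60 arrays, against 71.3, 73.6, 78.3 and 77.1% on the control arrays. All C60 arrays lay under all control arrays (exact permutation test, two-sided, p = 0.0286, the smallest that 4 against 4 arrays allow; adjusted over 6 array measures, p = 0.0857). On the NiO slide of the same time the share was 67.5 to 69.1%. Control arrays were also more spread, with a median standard deviation per gene of 0.15 among C60 arrays and 0.26 among control arrays, and 73.5% of genes varied more among the controls. Pearson correlations across genes were 0.989 to 0.992 between C60 arrays and 0.963 to 0.991 between control arrays, where genes are not independent replicates.

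The clock genes had the highest median of the 46 lists. Of 15 tested members, 6 rose and 1 fell, against 4.77 and 6.13% of all genes with a symbol, and the median of the list was 0.56. To show where the known E-box and NR1D1-site letters lie, the 250 bases before the start of 3 genes that rose and of Bmal1 are printed 5′ to 3′ from RefSeq (build GRCr8), with the E-box letters CACGTG in capitals in Nr1d1, Tef and Bhlhe40, and TAGGTCA, the core bound by NR1D1 and ROR proteins, in capitals in Bmal1. These genes and starts were chosen because they hold the letters, so they do not show that the letters go with a rise or fall. Nr1d1 has more than 1 start in the table, and the one shown is at chr10:84229455-84229704 on the minus strand. Tef is at chr7:115206577-115206826, Bhlhe40 at chr4:143174200-143174449 and Bmal1 at chr1:176766078-176766327, all on the plus strand.
Nr1d1: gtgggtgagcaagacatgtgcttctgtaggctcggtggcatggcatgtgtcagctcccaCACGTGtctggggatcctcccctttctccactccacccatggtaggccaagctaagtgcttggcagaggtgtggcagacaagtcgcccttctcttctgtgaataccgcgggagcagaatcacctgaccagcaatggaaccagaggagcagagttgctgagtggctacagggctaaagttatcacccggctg
Tef: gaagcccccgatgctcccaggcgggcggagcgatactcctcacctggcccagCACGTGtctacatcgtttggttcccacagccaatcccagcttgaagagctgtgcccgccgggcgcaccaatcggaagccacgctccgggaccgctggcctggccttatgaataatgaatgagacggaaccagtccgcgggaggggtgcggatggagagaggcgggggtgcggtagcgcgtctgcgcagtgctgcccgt
Bhlhe40: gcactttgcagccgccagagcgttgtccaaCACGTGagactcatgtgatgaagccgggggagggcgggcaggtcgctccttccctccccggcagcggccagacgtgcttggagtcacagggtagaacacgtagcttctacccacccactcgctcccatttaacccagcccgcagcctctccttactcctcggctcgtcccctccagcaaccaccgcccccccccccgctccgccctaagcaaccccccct
Bmal1: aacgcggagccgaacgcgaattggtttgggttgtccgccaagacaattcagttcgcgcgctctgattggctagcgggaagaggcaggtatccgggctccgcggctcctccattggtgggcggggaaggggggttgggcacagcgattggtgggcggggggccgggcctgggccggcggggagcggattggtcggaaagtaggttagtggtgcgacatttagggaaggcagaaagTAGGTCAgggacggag
Counted back from the gene start, the E-box begins at position -191 in Nr1d1, -198 in Tef and -220 in Bhlhe40, and the core in Bmal1 begins at -16. Over the same 250 bases of 33469 promoters in the table, 5.59% hold CACGTG, 2.26% hold TAGGTCA on either strand and 0.828% hold TTATGTAA, the D-box letters bound by DBP and TEF, on either strand; the 3 motifs were counted separately. Of 14 clock genes with a promoter in the table, CACGTG occurs in 4 (Nr1d1, Tef, Bhlhe40 and Bhlhe41), TAGGTCA in 1 (Bmal1) and TTATGTAA in 1 (Per2). A clock gene was counted if any of its starts held the motif, while the shares are per promoter, so they are unlike measures. Dbp, Per3 and Cry2, which also rose, are not among the 4, and Bhlhe41 was not called.

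Dbp, a transcription factor that carries clock time to metabolic genes, had the largest rise of any gene with a symbol. It read 2.88, 2.96, 2.37 and 2.33 on C60 arrays 1 to 4, against -0.84, -1.29, -0.85 and 2.39 on control arrays 1 to 4. Control array 4 thus read like the C60 arrays, and the groups overlapped. The difference was 2.78 (SE 0.74, n = 4 each, limma adjusted p = 0.046). Nr1d1, the repressor of Bmal1, read 1.00, 1.03, 0.90 and 0.77 after C60, against -1.75, -2.37, -2.25 and 0.61 in controls, again with array 4 of the controls apart from the others, and the difference was 2.37 (SE 0.60, adjusted p = 0.0411). The period gene Per3 rose by 1.70 (SE 0.33, adjusted p = 0.0242) and its second probe differed by 1.29. Tef, the DBP relative, rose by 1.07 (SE 0.20, adjusted p = 0.0231), Cry2, a repressor of the loop, by 0.97 and Bhlhe40, which competes for E-boxes, by 0.63 (SE 0.12, adjusted p = 0.022).

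The opposite arm of the loop ran the other way. Npas2, the partner of BMAL1, read -4.09, -3.78, -3.71 and -3.91 after C60, against -2.02, -2.82, -2.74 and -3.39 in controls, and fell by 1.13 on the log2 scale (SE 0.26, adjusted p = 0.0338). Bmal1 itself read 0.14, 0.20, 0.69 and 0.52 after C60, against 1.59, 1.66, 1.63 and 0.14 in controls. Its difference of -0.87 did not pass (SE 0.34, adjusted p = 0.112), and control array 4 again sat with the C60 arrays. Per2 read 1.29, 1.25, 0.88 and 1.19 after C60, against -0.07, 0.15, -0.81 and 0.90 in controls, with a difference of 1.11 that did not pass (adjusted p = 0.0539). Per1 differed by 0.56, Cry1 by -0.31, Nfil3 by -0.33, Rora by -0.45, Nr1d2 by 0.08 and Bhlhe41 by 0.03, none of them called.

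Without control array 4, 7 clock genes rose and 3 fell of 15, beside 1.97 and 4.67% of all genes in that fit. Bmal1 then fell by 1.24 (SE 0.16, adjusted p = 0.0226), Dbp rose by 3.63 (SE 0.21, adjusted p = 0.00444) and Nr1d1 by 3.05 (SE 0.17, adjusted p = 0.00444). Control array 4 differed from the mean of control arrays 1 to 3 by 3.38 for Dbp, 2.73 for Nr1d1, 1.42 for Per3 and -1.49 for Bmal1. Over all genes the median absolute difference of that array from the other controls was 0.21, and 471 of 24671 genes differed by 1 or more. Array 4 of the NiO slide showed the same split from its own slide, with Dbp at 2.92 against -0.51, -0.44 and -0.28 on NiO arrays 1 to 3, and Nr1d1 at 1.15 against -0.98, -0.62 and -0.54. The C60 slide mean of Dbp (2.64) lay 2.22 above the highest of the other 5 slide means, and that of Nr1d1 (0.92) lay 1.13 above. The 4 C60 arrays thus lay together, against 3 control arrays at other values and 1 control array near the C60 arrays. Leaving out C60 array 1, 2 or 3 ended all 7 calls of the list, and the highest adjusted p of Dbp without 1 array was 0.115.

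**Figure D1:**
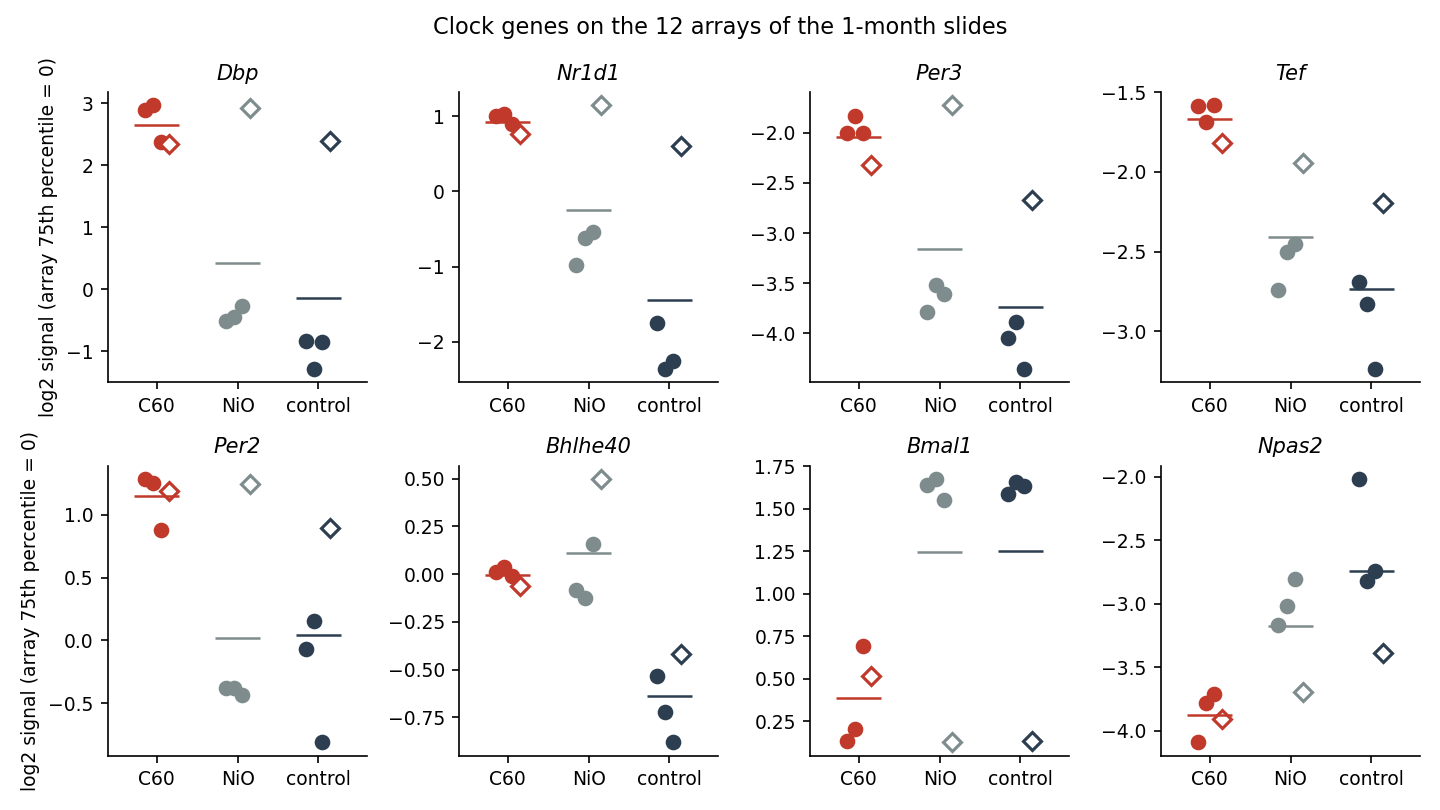
Log2 signal (75th percentile of the array = 0) of 8 clock genes on the 12 arrays of the 1-month slides, for C60, NiO and clean-air control lungs; filled circles are arrays 1 to 3, the open diamond is array 4 of a slide and the line is the mean of the 4. Array 4 of the NiO and control slides lies near the C60 arrays for Dbp (2.92 and 2.39), Nr1d1, Per2 and Bmal1.

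Immediate early genes and glucocorticoid-responsive genes had a few calls. Of 23 immediate early genes 2 rose and none fell. Fos, a transcription factor gene induced within minutes of many stimuli, read 0.70, -0.60, -0.19 and 1.03 after C60, against -1.74, -1.79, -0.92 and -1.08 in controls, without overlap, as 27.9% of all genes did, and rose by 1.62 (SE 0.38, adjusted p = 0.0354). Junb rose by 1.04 (adjusted p = 0.0323). Of 13 glucocorticoid-responsive genes 1 rose and 1 fell. Zbtb16, a zinc finger gene induced by glucocorticoids, read -2.90, -3.87, -3.10 and -2.74 after C60, against -4.74, -6.36, -4.99 and -4.45 in controls, of which 3 of 4 were well above background, and rose by 1.98 (SE 0.42, adjusted p = 0.0289). Zbtb16 was tested only because all 4 C60 arrays were well above background, so its p-value is no independent support for a rise. Hif3a, a negative regulator of hypoxia signalling, fell by 1.55 (adjusted p = 0.0467), and for this gene the control slide lay 1.11 above all other slides.

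A probe without a gene name had the largest fitted difference of the genes called higher. Probe A_44_P118475 maps in the files to chr20:4751593-4751652 (rn4), between the probes of C2 (chr20:4071504-4071563) and RT1-A3 on the chromosome that carries the rat major histocompatibility complex (MHC). It and the other genes of this region are described because their values were large; they were chosen after the values were seen. The first 30 of the 60 bases of the probes with the largest MHC-region differences, and of C2, are given from the files.
A_44_P118475: ctcaacttttgttctctgatgtcaataaag
RT1-CE10: ccggagtattgggagcggaacacacggatc
C2: cctggtgagttggggtctttttgacccttg
The unnamed probe read -1.86, -1.64, -1.81 and -0.37 after C60, against -7.53, -4.39, -7.93 and -8.02 in controls. All 4 C60 arrays were well above background and 1 of 4 control arrays was, so the fitted difference of 5.55 (SE 0.80, adjusted p = 0.013) is not an exact size. The probe passed the filter only through the C60 arrays, where it read high. Its p-value is therefore no independent support for a rise. The difference was 2.10 with normexp background correction, which adds 50 to every signal and so shrinks log2 differences of dim probes. The C60 slide mean was -1.42, and those of the other 5 slides ran between -7.87 and -5.49. RT1-CE10, a class I gene in the same region, read -0.12, 0.58, 0.46 and -2.05 after C60, against -3.20, -2.07, -2.51 and -2.31 in controls. C60 array 4 lay just above the highest control, and the rise was 2.24 (SE 0.56, adjusted p = 0.0407). RT1-A3 read -0.85, -0.30, -0.43 and -3.20 after C60, against -2.76, -3.54, -3.33 and -3.11 in controls, so that array 4 sat among the controls; the difference of 1.98 did not pass (adjusted p = 0.0602).

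Over the RT1 family, 29 genes were tested, of which 5 rose and none fell. The others called were RT1-CE6 (1.06), RT1-DOb (1.04), a class II gene that tempers peptide loading in B cells, RT1-CE7 (0.70) and RT1-CE1 (0.47, adjusted p = 0.037). RT1-CE1 was among the bright probes, at 6.89, 7.13, 6.99 and 6.68 after C60, against 6.46, 6.47, 6.38 and 6.49 in controls, with no overlap. The family's count depended on the arrays: without C60 array 1, 2 or 3, or with array position as a block, none of the 29 was called. Without any 1 control array 1 or 2 rose, and 1 fell without control array 1. Without C60 array 4, 10 rose, beside 1.35% of all genes in that fit. Probes of RT1 genes share sequence, and RT1-Aw2 shows how far they part, with differences of 0.50, 0.62, 1.62 and 2.03 on its 4 probes. A further probe that the files call an MHC class II antigen, A_44_P325772, rose by 1.14 (adjusted p = 0.0385) with its slide mean 1.14 above all others. Of 11 genes of class II presentation only RT1-DOb was called; Cd74, the invariant chain, differed by 0.35 and RT1-DMa by 0.51.

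**Figure D2:**
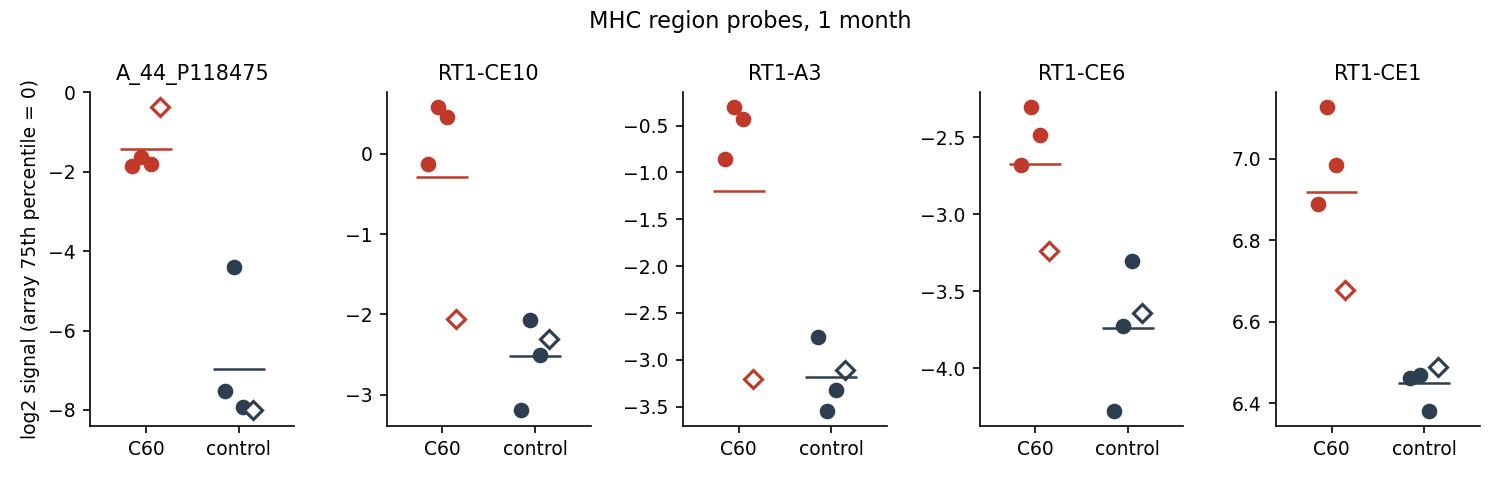
Log2 signal (75th percentile of the array = 0) of 5 MHC-region probes on the 4 C60 arrays (left) and 4 control arrays (right); the open diamond is array 4 and the line is the mean. A_44_P118475 shows no overlap, with 1 of 4 control arrays well above background, while for RT1-CE10 and RT1-A3 array 4 of the C60 slide reads like the controls.

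C2, a serine protease precursor of the classical complement pathway, was the only gene with a symbol that rose with no overlap, with all arrays and also without each array in turn. It read 2.55, 2.68, 2.73 and 2.57 after C60, against 1.83, 1.73, 1.94 and 2.12 in controls, a rise of 0.73 (SE 0.11, adjusted p = 0.0149; the highest adjusted p without 1 array was 0.0498). The control slide mean (1.90) was the lowest of all slides, and the C60 slide mean (2.63) was the next lowest. The gap of 0.73 between them is therefore the same difference again and no separate evidence. The remaining slide means ran from 2.82 to 3.21, above that of the C60 slide. No other complement gene rose of 25 tested, and Masp2, the lectin-pathway protease, was lower, as given below.

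The falls had another make-up. By the same rule 107 genes with a symbol were lower, and the 12 with the largest falls were Or8b52, Golt1a, Ambn, Rbp3, Aox2, Masp2, Cadm2, Or52d1, Tas2r118, Six6, LOC365985 and Sorcs1. Several are known from other tissues, Or8b52 and Or52d1 as olfactory receptors, Tas2r118 as a taste receptor, Ambn from enamel, and Rbp3 and Six6 from the retina. On the C60 arrays none of the 12 was ever well above background, and on the control arrays each always was, so only a lower bound of the fold can be given: the control mean against, per C60 array, either its own reading or the lowest signal that counted as well above background there, whichever was higher. Or8b52 read -7.63, -7.75, -7.62 and -7.74 after C60, against -4.53, -3.29, -2.69 and -3.47 in controls, at least 7.81-fold lower (adjusted p = 0.0023). Golt1a, a Golgi transport gene, was at least 7.93-fold lower and Rbp3 at least 8.31-fold, though its second probe differed by -0.16. Masp2 was at least 4.68-fold lower and Tas2r118 at least 3.06-fold. Each of the 12 passed the filter only through the control arrays, where it read high. The p-values and bounds are therefore no independent support for a fall. With normexp background correction only Rbp3 of the 12 was called, and Or8b52 differed by -0.65 (limma adjusted p = 0.0884). The 50 that this correction adds to every signal shrinks differences of such dim probes. Its values are therefore no other estimate of the size of a fall.

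The olfactory receptor family shows the pattern in bulk. Of 1109 members on the array 272 were tested; none rose and 96 fell, with a median of -1.02 (-0.63 after quantile normalization). Because a member passed the filter if all control arrays were well above background, the count is no measure of the family as a whole. With normexp, whose added 50 shrinks differences of dim probes, 15 of the 272 fell. Of the 2200 genes lower after C60, 726 were not well above background on all C60 arrays and 284 on none, while 17 of the 888 higher genes fell short on some control array. With the genes split by mean signal into 5 bins of equal size, in the dimmest bin 21.2% were lower and 1.03% higher, with a median of -0.50, against 1.28% lower and 3.49% higher in the brightest bin, with a median of -0.02. After quantile normalization the median of the dimmest bin was -0.03. Of the genes tested, 1679 passed the filter only through the control arrays and 381 only through the C60 arrays. The filter thus leaned toward genes that read high in controls, and the shares in the dim bins are no independent support for a fall. With only probes well above background on all 8 arrays, 1373 of 22617 genes were lower.

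**Figure D3:**
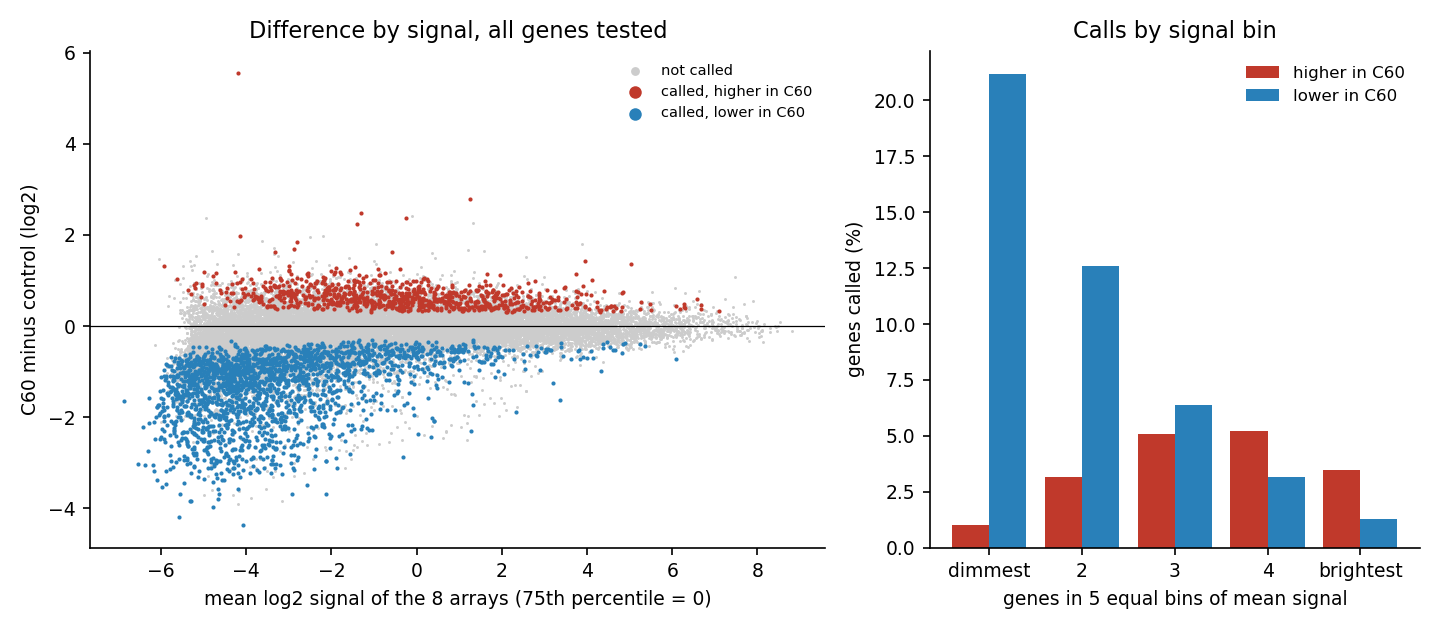
Left, the difference C60 minus control (log2) of each of the genes tested against its mean log2 signal over the 8 arrays; right, the share of genes called higher and lower after C60 in each of 5 equal bins of mean signal. Lower calls crowd the dim end, 21.2% in the dimmest bin and 1.28% in the brightest. Genes could pass the filter through either group alone, and more did so through the control arrays.

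Over all calls, the base composition of the probes differed for the higher genes and was near that of all genes for the lower ones. The mean GC content was 48.8% in probes of higher genes, 43.5% in those of lower genes and 43.7% over all. In the brightest 2 of these bins, probes with under 40% GC had a median difference of -0.14 with 0.67% higher and 3.41% lower, and those with 50% or more had 0.24 with 11.0% higher and 1.73% lower. Quantile normalization left these medians at -0.14 and 0.23. In the dimmest 2 bins, probes with under 40% GC had a median of -0.36 with 0.60% higher and 17.5% lower, and those with 50% or more had -0.31 with 3.47% higher and 16.6% lower. After quantile normalization the medians of these dim probes were 0.01 and 0.06. Gclm, the regulatory subunit of glutathione synthesis, is a dim gene at the low end, with 15% GC in its probe at chr2:218915215-218915274 (rn4). The first 30 bases of that probe and of the Dbp probe (46.7% GC, chr1:96178020-96178079) are printed. The Dbp probe is also brighter, so the pair is no measure of an effect of base composition.
Gclm: atatatttcctttatttttatgagtaatag
Dbp: agaacaatgaagcagccaagaggtcgagag
Gclm read -5.61, -5.96, -6.02 and -5.86 after C60, never well above background, against -4.30, -3.73, -3.70 and -3.85 in controls, at least 3.9-fold lower (adjusted p = 0.00233), and the control slide lay 1.25 above all others. Gclm too passed the filter only through the control arrays. The thrombin receptor gene F2r, whose probe has 21.7% GC, read -4.47, -4.04, -4.54 and -4.79 after C60, against -2.88, -3.08, -2.96 and -2.85 in controls, and fell by 1.52 (SE 0.16, adjusted p = 0.00524). Its relative F2rl1 fell by 1.79.

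The control slide was outermost more often than any other when no minimum gap was set; at a gap of 1 log2 unit it was so for 1.5% of genes and the NiO slide of 3 days for 2.15%. The mean of the C60 slide lay outside those of the other 5 slides for 22.8% of all genes tested, and that of the control slide for 46.9%. Among the 888 higher genes the C60 slide was the highest of all 6 for 197 (22.2%) and the control slide the lowest for 665 (74.9%). Among the 2200 lower genes the C60 slide was the lowest for 881 and the control slide the highest for 1455 (66.1%). These shares are a description, because the calls were made on the same 2 slides. The median absolute difference per gene was 0.13 between the C60 and NiO slides, 0.28 between the C60 and control slides and 0.33 between the NiO and control slides of the same month. By at least 1 log2 unit, 317 genes parted the C60 and NiO slides and 2300 the C60 and control slides.

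**Figure D4:**
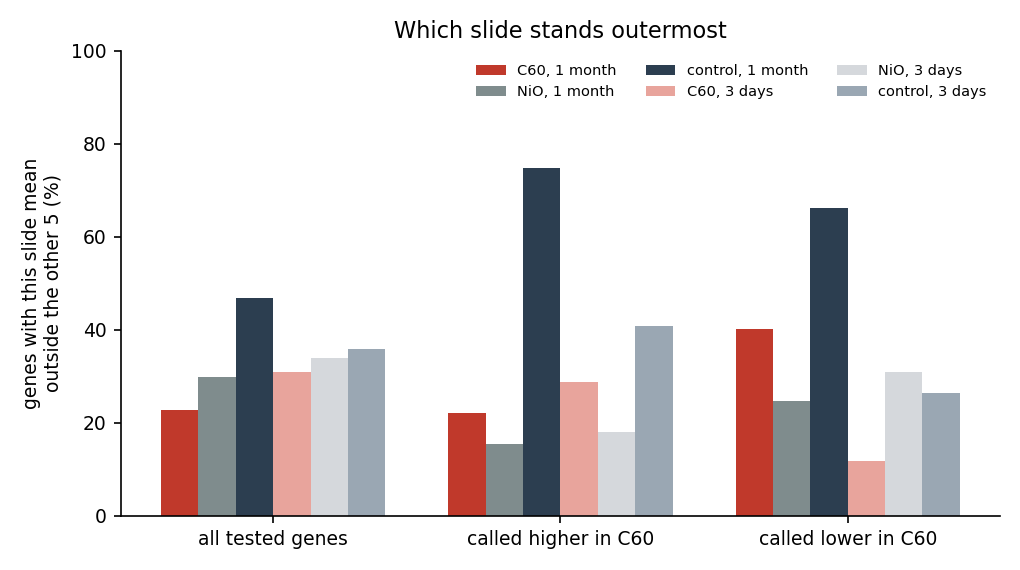
Percentage of genes for which the mean of a slide lies outside the range of the other 5 slide means, for all genes tested and for those called higher or lower after C60 at 1 month. The 1-month C60 slide is outermost for 22.8% of all genes, and the 1-month control slide for 46.9% of all, 74.9% of the higher and 66.1% of the lower genes.

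The C60 slide lay 1 log2 unit or more outside all 5 other slides for 5 of the 888 higher genes and 22 of the 2200 lower genes, and the control slide did so for 14 and 206 of them. The 5 are A_44_P118475, A_44_P325772, Dbp, Nr1d1 and A_44_P181104 (1.14, adjusted p = 0.0462), an unnamed probe. Among the lower ones Trim16, a TRIM-family ubiquitin ligase, read -6.26, -6.19, -5.76 and -6.31 after C60, against -4.83, -5.13, -3.68 and -4.00 in controls, with 1 of 4 C60 arrays well above background, and fell by 1.72 (SE 0.32, adjusted p = 0.022). Slc47a1, a transporter that exports organic cations, fell by 1.06 (adjusted p = 0.028). These genes were chosen after their values were seen.

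Of the gene lists of a lung reacting to particles, some held no call. Others, given further below, held calls in either direction for 14.8% (macrophage activation and lysosome), 15.6% (Nrf2 and antioxidant) and 15.4% (matrix and fibrosis mediators). The share over all genes with a symbol was 10.9%. At an unadjusted p of 0.05, 8989 of all 24671 genes tested passed, and the unadjusted counts of the lists stand beside that share. No chemokine or cytokine gene passed of 34 tested, at an unadjusted p of 0.05 4 were higher and 4 lower, and the list median was -0.05. Cxcl2 differed by -0.01, Cxcl1 by -0.42, Ccl2 by 0.07 and Il1b by 0.24 (its second probe by -0.12). None of 13 neutrophil genes was called (0 higher and 1 lower unadjusted), with S100a8 at 0.17 (its second probe at -1.12) and Cd177 at 0.30. None of 21 matrix metalloproteinase genes was called (4 higher and 4 lower unadjusted); Mmp12, the macrophage elastase, read -1.69 after C60 and -1.55 in controls on average, a difference of -0.15 (SE 0.18). None of 10 genes of alternative macrophage activation was called (1 higher and 1 lower unadjusted), and Retnla, with the largest difference, was at 1.30 (SE 0.59, adjusted p = 0.151). The same held for 31 interferon and class I genes (4 higher and 4 lower unadjusted). That list does not hold the RT1 class I genes called above. A gene that did not pass is not shown to be equal in both groups.

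Of 27 genes of macrophage activation and lysosomes 1 rose and 3 fell. In whole lung, fewer cells of a type and less RNA per cell cannot be told apart. Cd36, a scavenger receptor for oxidised lipid, read 2.17, 2.21, 2.67 and 2.62 after C60, against 3.74, 3.25, 3.12 and 3.43 in controls, without overlap, and fell by 0.97 (SE 0.18, adjusted p = 0.0218). Atp6v0d2, a proton pump subunit, fell by 0.86 and Ctsk, a collagen-cutting cathepsin, by 0.50, while Lamp1, a lysosomal membrane protein, rose by 0.51. For Cd36, Atp6v0d2 and Ctsk neither the C60 nor the control slide was outermost of the 6. Trem2, a lipid-sensing receptor, differed by -0.67 (SE 0.35, adjusted p = 0.197). Of 18 macrophage identity genes 2 rose, both with the C60 slide highest of all: Fbp1, a gluconeogenic enzyme, by 0.72 (its second probe differed by -0.04) and Clec4a1, a C-type lectin, by 0.71.

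Of 32 Nrf2 and antioxidant genes 3 rose and 2 fell. Gpx3, a secreted glutathione peroxidase, rose by 1.11 (adjusted p = 0.0442), Keap1, the inhibitor of NRF2, by 0.88 and Txn1, thioredoxin, by 0.38. Sod2, the mitochondrial superoxide dismutase, read -0.71, -0.76, -0.72 and -0.72 after C60, against -0.23, -0.08, -0.30 and -0.42 in controls, and fell by 0.47 (SE 0.10, adjusted p = 0.0272), and Gclm fell as above. Hmox1 (0.30), Nqo1 (-0.25) and Gclc (-0.30) did not pass. Of 20 genes of haem, iron and metal handling the metallothionein gene Mt1 rose by 0.64 (adjusted p = 0.035) and the zinc importer gene Slc39a1 fell by 1.86.

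Scgb1a1, the club cell secretoglobin, read 4.14, 4.31, 4.09 and 4.17 after C60, against 3.23, 3.02, 3.61 and 3.81 in controls, and rose by 0.76 (SE 0.18, adjusted p = 0.0341). In the same list of 17 club and xenobiotic genes the lung cytochrome Cyp4b1 rose by 0.50 and the aldehyde dehydrogenase Aldh3a1 fell by 0.77. Of 22 alveolar type II genes 3 rose, Etv5, a transcription factor of these cells, by 0.83, the mucin Muc1 by 0.57 and Napsa, a protease that processes surfactant protein, by 0.39. The defining surfactant gene Sftpc was not called, at 8.75 after C60 and 8.86 in controls on average, and was among the brightest probes of the arrays; its second, dim probe differed by -1.17. Among 9 mucus and airway secretion genes the membrane mucin Muc4 fell by 3.11 (adjusted p = 0.0337), with 3 of 4 C60 arrays well above background. Of 17 ciliated cell genes Zmynd10, an assembly factor for dynein arms, rose by 0.46 and Dnai2, a dynein chain, by 0.33. The 15 alveolar type I genes held 1 call, Cyp4b1 again.

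The calls among endothelial, collagen and matrix genes were all higher, at 10.7, 5.88 and 15.4% of those tested. Over genes with a symbol 10.9% were called, 4.77% higher. Without C60 array 1, 2 or 3, or with array position as a block, none of these lists held a call. Of 28 endothelial genes 3 rose and none fell: Nos3, the endothelial nitric oxide synthase, by 0.96 (adjusted p = 0.026), Ace, the angiotensin-converting enzyme, by 0.71 and Esam, a junction molecule, by 0.57. In each of these the control slide was the lowest of 6. The list median was 0.26, against -0.01 over all genes with a symbol. Col4a2, a basement membrane collagen, read 0.67, 0.85, 1.08 and 0.41 after C60, against -0.06, -0.91, -0.21 and 0.02 in controls, and rose by 1.04 (adjusted p = 0.0311), alone among 17 collagen genes. Of 26 matrix and fibrosis mediators 4 rose, Sparc, a collagen-binding glycoprotein, by 0.60, Pdgfa, a fibroblast mitogen, by 0.58, Tgfb1 by 0.55 and Loxl2, a collagen cross-linking enzyme, by 0.49, and for Sparc, Pdgfa and Loxl2 the C60 slide was the highest. Smtn, a smooth muscle protein, rose by 0.66 in a list of 14.

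Of 10 B and plasma cell genes 2 rose and none fell, and the list median was 0.42. Cd79b, a signalling chain of the B cell receptor, read 0.65, 0.83, 0.40 and 0.30 after C60, against -0.45, -0.39, 0.08 and -0.01 in controls, and rose by 0.74 (SE 0.17, adjusted p = 0.0343). Of 24 T and NK cell genes Foxp3, the regulator of regulatory T cells, fell by 1.52 (adjusted p = 0.024), with 2 of 4 C60 arrays well above background. Faslg, the death ligand, fell by 0.55 among 30 apoptosis genes. The mean of the 14 heart muscle genes was 1.42 to 2.14 on C60 arrays and 0.87 to 1.97 on control arrays. That of 9 red cell genes was -2.12 to -0.78 and -2.75 to -0.58. None of either list was called (2 higher and 0 lower, and 1 higher and 1 lower, unadjusted, beside 8989 of all 24671 genes).

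The remaining lists held scattered calls. The glycolytic genes Aldoa and Pkm rose by 0.72 and 0.58 of 24 tested, the chaperone Calr by 0.66 of 21, the heat shock factor Hsf1 by 0.48 of 14, Cyp51 of sterol synthesis by 0.66 of 21 and the carnitine transferase Cpt2 by 0.51 of 23, where Acot2, a mitochondrial thioesterase, fell by 0.54. Krt8, an epithelial keratin, rose by 0.74 and Krt13 fell by 1.44 of 13. Psmd6 fell by 0.44, alone among 30 proteasome genes. Of 8 sperm and testis genes 3 fell, Smcp by 3.58 (adjusted p = 0.0202; 1 of 4 C60 arrays well above background), Prm1 by 0.74 and Spata18 by 0.70, and the kallikreins Klk1 and Klk1c2 fell by 3.11 and 2.81 of 6, with 3 and 1 of 4 C60 arrays well above background, so that these sizes are not exact. Of 5 vomeronasal receptor genes Vom2r10 was at least 5.77-fold lower. Smcp, Klk1, Klk1c2 and Vom2r10 passed the filter only through the control arrays. With only probes well above background on all 8 arrays, 0 of 3 kallikreins and 0 of 4 vomeronasal receptor genes were called. By that filter 2 of 6 sperm and testis genes fell. No gene was called among 39 of the respiratory chain (3 higher and 1 lower unadjusted), 48 ribosomal (8 and 1), 30 cell cycle (3 and 4), 10 tachykinin (2 and 4), 9 mast cell (0 and 1) and 9 fat cell genes (1 and 0).

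**Figure D5:**
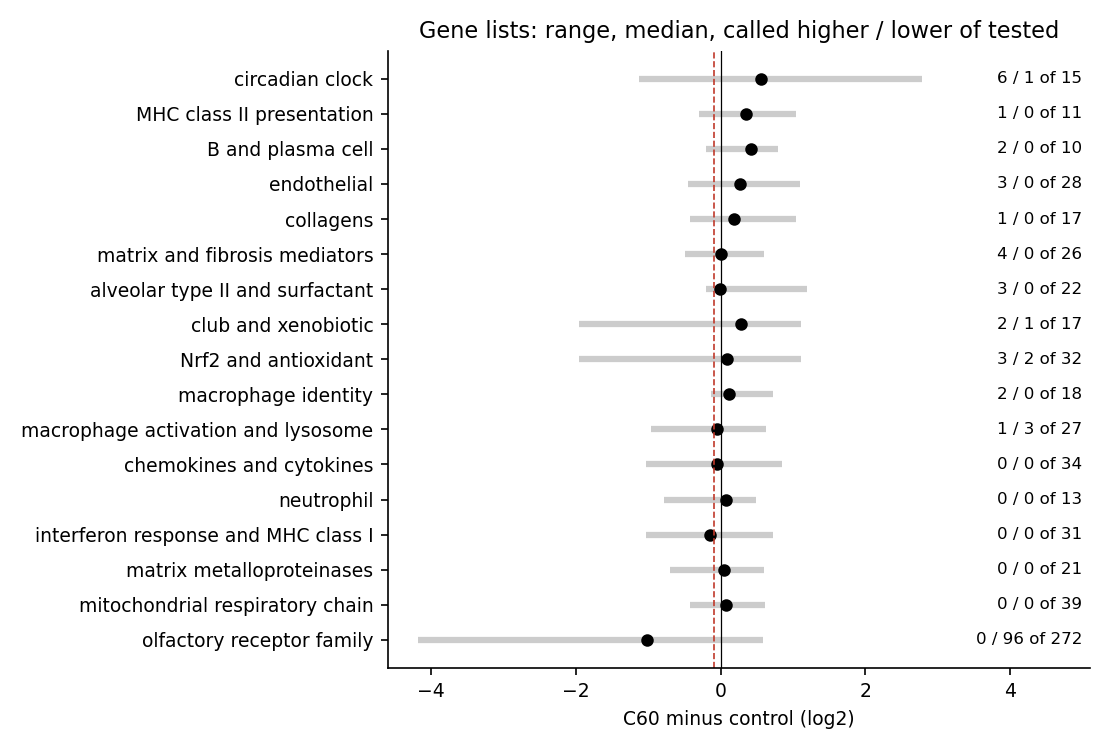
Difference C60 minus control (log2) for 17 gene lists: grey bars span the lowest to the highest tested member, black points are medians, numbers at the right are members called higher / lower of those tested and the dashed line is the median of all genes (-0.09). The clock list has the highest median of those drawn (0.56) and the olfactory receptor family the lowest (-1.02).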

How the data were processed

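The deposited files analysed here are scanner text files, 1 per array, and per the file headers Feature Extraction 9.5.3.1 turned each scan into a background-subtracted processed intensity on a linear scale. The ratio table deposited by the authors was used only to see which 3-day C60 arrays it was made from; arrays 1 and 2 matched it and were used. The grid in the headers names build rn4. Control spots and outlier-marked spots were left out, spots of a probe averaged, and each array's log2 processed signal was set to 0 at its 75th percentile. Probes stayed in if all 4 arrays of either group had them well above background (28320 of 41012 probes), and the brightest probe of a gene was used. Names came from a RefSeq gene table by accession or symbol, and 18933 probes have none. Differences were fitted with limma 3.58.1 in R 4.3.3 on 8 arrays (6 residual degrees of freedom; checked on simulated data), with Benjamini-Hochberg adjustment. Exact permutation tests used scipy 1.17.1. Members and gene lists were chosen with earlier results of these data known. Genes are named where they are among the 12 largest rises or falls with a symbol, no overlap and an adjusted p under 0.05 without each array in turn, or among up to 4 called members a direction of a list; other names were chosen after values were seen. The number of arrays limits precision. Array position within the slide was also tried as a block. Over all genes, same-position C60 and control arrays did not deviate together (correlations of -0.05, -0.12, 0.12 and -0.12). This cannot exclude a link by position for some genes, and position was not taken as a pairing. One gene of the lists is not reported here.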

Additional observations from a re-analysis of the deposited data

Results flagged for a closer look

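Control array 4 stood apart from the other 3 control arrays for Dbp, with a gap of 0.878 of the group's range, and for Bmal1, with 0.953. Probe A_44_P118475 had 1 array apart in each group, C60 array 4 (gap 0.851 of the range) and control array 2 (0.867), while the groups did not overlap. Control array 2 stood apart for Trem2 (0.925). Chance marks about 1 in 20 groups in this way, and 42 groups of 4 arrays were examined.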

How the results depend on the processing

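The count of 3088 called genes (888 higher, 2200 lower) was fragile. It was 7365 (5697 higher) with median scaling, 1107 (497 lower) with normexp, 1802 (237 higher) with no filter, 4940 (1834 higher) in 1 fit over all 6 groups, and 1905 higher and 1305 lower with quantile normalization. With only probes well above background on all 8 arrays 1373 were lower. With array position as a replicate block, which was not taken as a pairing here, 119 were called, 5 higher and 114 lower. Without each array in turn the count ran from 395 to 3114, with 21 to 543 higher and 368 to 2609 lower: without C60 arrays 1, 2, 3 and 4 it was 584, 396, 395 and 1306, and without control arrays 2 and 4 it was 1981 and 1637. Chosen after seeing the data, leaving out control arrays 3 and 4 together gave 8160 (3087 higher, 5073 lower) and leaving out control arrays 1 and 2 gave 3387 lower. Called with all arrays and without each in turn were 291 genes, 9 higher and 282 lower, unnamed probes included. The cause of these shifts was not tested. No clock gene was called without C60 array 1, 2 or 3, or with the block. Of 127 genes examined one by one and called, 31, 23, 25 and 58 stayed called without C60 arrays 1, 2, 3 and 4, 67 to 90 without 1 control array, 11 with the block, 55 with no filter, 58 with normexp, 107 with quantile normalization and 115 in the fit over 6 groups, and none changed sign; RT1-T18, not called, moved to 0.69 when its probes were averaged and was then called. The control slide was outermost for 11576 genes, for 11261 with all 4 C60 arrays of 3 days and 11045 after quantile normalization. The difference in spots well above background of -5.85 points ran from -7.11 to -4.77 without 1 array. Dim signal limits the falls: 726 of the 2200 rest on a C60 value not well above background on every array. These 726 passed the filter only through the control arrays.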
